A study of Mus musculus with 4 samples.

Results

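The opioid and tachykinin system genes examined here were 9 genes chosen by name, 4 opioid receptors (*Oprm1*, *Oprd1*, *Oprk1* and *Oprl1*), 3 opioid peptide precursors (*Penk*, *Pdyn* and *Pnoc*), the tachykinin precursor *Tac1* and its receptor *Tacr1*. Their members were the rows of the deposited m6A peak tables that carry one of these gene names, and 8 of the 9 genes had a row, among 13554 genes named in the CCI or sham list. MeRIP-seq compares RNA fragments captured by an antibody against m6A (IP) with the same fragments before capture (input). The libraries were made from poly(A) RNA of C57BL/6J mouse spinal cord, at an age of 6 to 8 weeks. In the CCI (chronic constriction injury) group the sciatic nerve was loosely tied with silk, and the sham group had the same operation with no tie. Tissue was taken on day 7 after surgery, and the question was which m6A sites differ after peripheral nerve injury. Each group had 1 IP and 1 input library, so no value below has a replicate error and no test between the groups was possible. The number of mice behind each library, the segment and the side of the cord are not given in the sources used here. Read counts are not in the tables used here, so the depth of each library is unknown.

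Opioid receptors are inhibitory receptors coupled to Gi and Go proteins. In the superficial dorsal horn they sit on the terminals of nociceptive sensory neurons and on local neurons, where they reduce transmitter release and excitability, and their peptide ligands come from local interneurons. Substance P, made from the *Tac1* transcript, is released by peptidergic nociceptors and excites projection neurons of lamina I through the Gq-coupled receptor encoded by *Tacr1*.

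The CCI list held 20 peaks of these genes and the sham list 21, and the same 8 genes had a peak in each list. Over all protein-coding genes of RefSeq, 49.9% (exact 95% interval 49.3 to 50.6%, counting error only) had a peak in the CCI list and 51.5% (50.8 to 52.2%) in the sham list. *Tac1* was the gene with no row in either list or in the differential table, and no peak under any other name lay in its RefSeq span on chromosome 6 from 7555061 to 7562978. A missing peak does not give a level of the transcript, because a peak can be called only where the RNA is present in sufficient amount. The median fold enrichment of IP over input was 8.27 for the 20 CCI peaks and 6.13 for the 21 sham peaks, beside 5.73 and 5.70 over all peaks of the CCI and sham lists.

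By the deposited annotation, 17 of the 20 CCI peaks lay in a 3′-UTR and 3 in a 5′-UTR, and of the 21 sham peaks 17 lay in a 3′-UTR and 4 in a 5′-UTR. Over all peaks, the 3′-UTR class held 49.8% in CCI and 48.9% in sham, and the 5′-UTR class 14.7% and 16.1%. The exon class held 0 peaks of these genes in each list, whereas over all peaks it held 35.5% in CCI and 35.1% in sham. The annotation gives each peak a single class, and by it the m6A signal of these genes was placed in untranslated regions in both groups. For *Oprm1* this is not the end of the transcript, since its peaks lay from 89033 to 149147 bp before the end of the transcript they were assigned to. With the peaks of doubtful strand described below left out, 13 CCI and 14 sham peaks lay in a 3′-UTR and 3 in each list in a 5′-UTR.

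Peaks of one gene that overlapped by at least 1 exonic base and were each other's best partner were taken as a pair, and their fold enrichments were compared as CCI over sham on the log2 scale. The 16 pairs of these genes had a median log2 ratio of -0.15, with 6 higher and 10 lower in CCI. Over all 26970 pairs of the lists the median was 0.028, with quartiles of -0.37 and 0.44. A difference of at least 2-fold was used as the call, and it was reached by 3 of the 16 pairs with the higher value in CCI (*Oprk1*, *Oprl1* and *Tacr1*) and by 3 with the lower value (*Oprm1*, *Pnoc* and *Tacr1*). Over all pairs, 8.63% (exact 95% interval 8.30 to 8.97%) were called higher and 7.23% (6.92 to 7.54%) lower in CCI. At this fold and overlap the calls in these genes therefore stood in equal number on both sides, and *Tacr1* contributed to each side. The balance was not fixed. With an absolute log2 ratio of at least 0.5, 4 pairs were called higher and 6 lower, and with an overlap of 50% of both peaks 2 and 1.

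**Figure D1:**
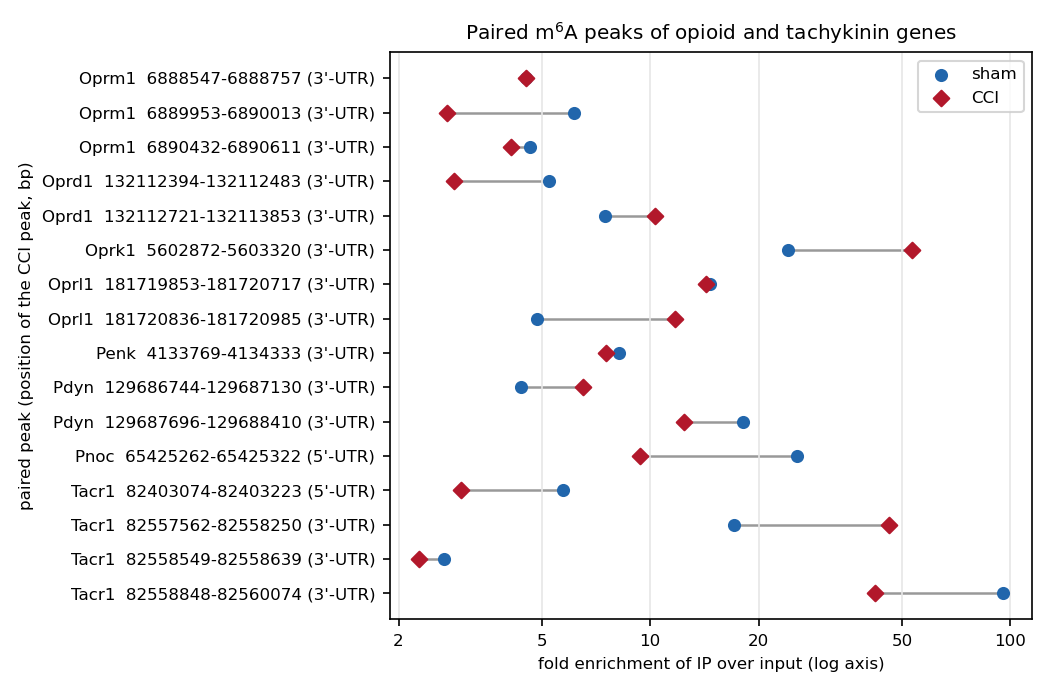
Fold enrichment of IP over input (x axis, log scale) in the 16 paired peaks of the opioid and tachykinin genes (y axis, gene and position of the CCI peak), with circles for sham and diamonds for CCI, 1 library pair per group. The lines run in both directions, and long lines include those of *Pnoc* (9.38 in CCI, 25.6 in sham) and of the 3′-UTR of *Tacr1* (45.9 in CCI and 17.1 in sham at its start, 42.2 in CCI and 95.3 in sham at its end).

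Where the widths of a pair differed, the wider peak mostly had the higher fold enrichment. In 10 of the 16 pairs the CCI peak was narrower than its sham partner, and 9 of these had the lower fold enrichment in CCI, the exception being a *Pdyn* peak. In 3 pairs, in *Oprd1*, *Oprk1* and *Oprl1*, the CCI peak was the wider one, and all 3 had the higher fold enrichment in CCI. The remaining 3 pairs had equal widths, and they included the *Tacr1* pairs with log2 ratios of 1.42 and -1.18, so large differences also occurred without a change of width. Over all pairs, 65.8% (65.0 to 66.7%) of those with a narrower CCI peak were lower in CCI, against 26.0% (25.0 to 26.9%) of those with a wider one. Of those with equal widths, 42.8% (41.6 to 44.0%) were lower. This grouping by width was chosen after the values were seen, and the part of the borders in each ratio was not tested.

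All 5 genes with at least 2 pairs (*Oprm1*, *Oprd1*, *Oprl1*, *Pdyn* and *Tacr1*) had pairs on both sides of zero. Over all genes with at least 2 pairs, 66.8% (65.7 to 67.9%) of 6815 had pairs that went both ways, so this is the common case. For *Oprm1* and *Oprl1* the sign rests on a ratio close to zero. The *Oprm1* value of 0.0032 became -0.024 after the median of all pairs was subtracted, and the *Oprl1* value of -0.040 became 0.036 on the ranks within each list. The opposite directions within *Oprd1*, *Pdyn* and *Tacr1* were present under both of these scalings.

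*Oprk1* (ENSMUSG00000025905) encodes the κ receptor, the main receptor of dynorphins. Its single peak lay in the 3′-UTR on chromosome 1, from 5602872 to 5603320 in CCI and from 5602902 to 5603320 in sham (GRCm38, as are all coordinates here). The fold enrichment was 53.2 in CCI and 24.1 in sham, a log2 ratio of 1.14. This ratio was above that of 93.3% of all pairs. The peak was among the top 3.49% of the CCI list by fold enrichment but only among its top 43.1% by the p-value of IP against input (log10 p -21.9), and in sham it was among the top 9.70% and 39.2% (log10 p -30.0). The κ receptor transcript thus had a high ratio of IP to input with a middling p-value in both lists, and the group with the higher fold enrichment had the weaker p-value.

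*Oprd1* (ENSMUSG00000050511), the gene of the δ receptor, had 2 pairs in its 3′-UTR on chromosome 4. The peak nearer to the transcript end ran from 132112394 to 132112483 in CCI, where its fold enrichment was 2.85. Its sham partner, from 132112334 to 132112572, had 5.23, a log2 ratio of -0.88. The longer peak next to it, 1133 bp from 132112721 to 132113853 in CCI and 1043 bp from 132112781 to 132113823 in sham, had 10.3 in CCI and 7.48 in sham, a log2 ratio of 0.46. The 2 neighbouring peaks of the δ receptor transcript therefore leaned in opposite directions, and neither reached 2-fold.

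*Oprl1* (ENSMUSG00000027584) encodes the receptor of nociceptin. On chromosome 2 its signal, all annotated in the 3′-UTR, was divided differently by the lists. In sham a single peak of 2264 bp ran from 181718484 to 181720747 with a fold enrichment of 14.7. In CCI 3 peaks lay inside it, from 181718484 to 181718692 (fold enrichment 2.94), from 181718871 to 181719705 (17.8) and from 181719853 to 181720717 (14.3). They covered 1909 bp, or 84.3%, of the sham peak, and their mean fold enrichment weighted by length was 14.6. This mean leaves out the gaps between the CCI peaks, so it is not a fold enrichment of the whole stretch, and it cannot be set against the single sham value.

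The best partner of the long sham peak was the CCI peak with 14.3, a log2 ratio of -0.040. The last peak of *Oprl1*, at the very end of the transcript, was called from 181720836 to 181720985 in CCI with 11.7 and from 181720925 to 181720985 in sham with 4.84. Its log2 ratio of 1.27 passed 2-fold, but the sham peak spans 61 bp and the CCI peak 150 bp, and the peak ranked only within the top 76.3% of the CCI list and 84.8% of the sham list by p-value.

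**Figure D2:**
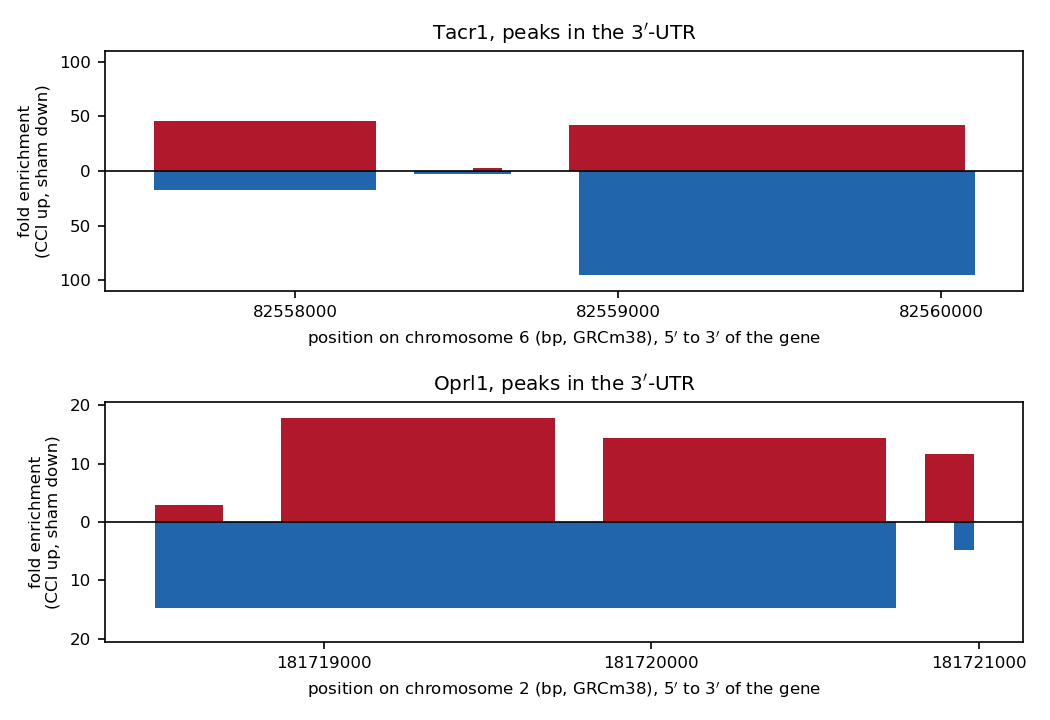
Position (x axis, bp) and fold enrichment of IP over input (y axis, CCI drawn upward in red and sham downward in blue) of the 3′-UTR peaks of *Tacr1* on chromosome 6 and *Oprl1* on chromosome 2. In *Tacr1* the 2 strong peaks are alike in CCI (45.9 and 42.2) and unlike in sham (17.1 and 95.3), and in *Oprl1* 3 CCI peaks lie inside 1 sham peak of 2264 bp.

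*Oprm1* (ENSMUSG00000000766) encodes the μ receptor, the main target of morphine. The lists named 4 CCI peaks and 5 sham peaks for it on chromosome 10, all annotated in a 3′-UTR. All 4 CCI peaks and 3 of the sham peaks formed a cluster from 6888547 to 6890671. The other 2 sham peaks lay upstream, from 6830197 to 6830557 with a fold enrichment of 8.72 and from 6849908 to 6850148 with 10.8, and no CCI peak overlapped them.

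The cluster lies inside a gene of the opposite strand. *Ipcef1*, whose product interacts with cytohesin exchange factors, spans 6885779 to 7054782 on the minus strand in RefSeq (GRCm38.p6), and the cluster begins 2768 bp and ends 4892 bp from the lower border of this span, which is the 3′ end of *Ipcef1*. No row of either list is named *Ipcef1*, which was picked out here after the values were seen. The tables give the strand of the annotated gene but not of the peak. Their row order, however, goes with the strand of the gene. Within a chromosome the rows ascend by position, drop back and ascend again, and 16439 of the 17496 CCI peaks in the ascending run that comes first were named for plus-strand genes, while 14822 of the 16060 in the other run were named for minus-strand genes.

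In the CCI list 6.84% of all peaks (6.57 to 7.11%) and in the sham list 7.02% (6.75 to 7.29%) stood in the run of the strand opposite to their gene. Of the opioid and tachykinin peaks, 4 in each list did so. They were the whole *Oprm1* cluster in CCI, its 3 peaks in sham, and 1 sham peak of *Penk*. Library preparation by the dUTP method marks strand, whereas it is not stated whether strand entered peak calling. Counted only by peaks in the run of its own strand, *Oprm1* had 0 peaks in CCI and 2 in sham, and 7 of the 9 genes had a peak in CCI and 8 in sham.

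The values of the cluster are given here under the name in the tables. The peak from 6888547 to 6888757 had the same borders and nearly the same fold enrichment in both lists, 4.52 in CCI and 4.51 in sham (log2 ratio 0.0032). The sham peak from 6889804 to 6890162, with 6.13, overlapped 2 CCI peaks, one from 6889714 to 6889833 with 3.96 and one from 6889953 to 6890013 with 2.72. The latter was its best partner, and their log2 ratio of -1.17 compares 61 bp in CCI with 359 bp in sham. The last pair, from 6890432 to 6890611 in CCI and to 6890671 in sham, had 4.11 and 4.65 (log2 ratio -0.18). Apart from the split peak in its middle, the cluster was thus alike in both groups.

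**Figure D3:**
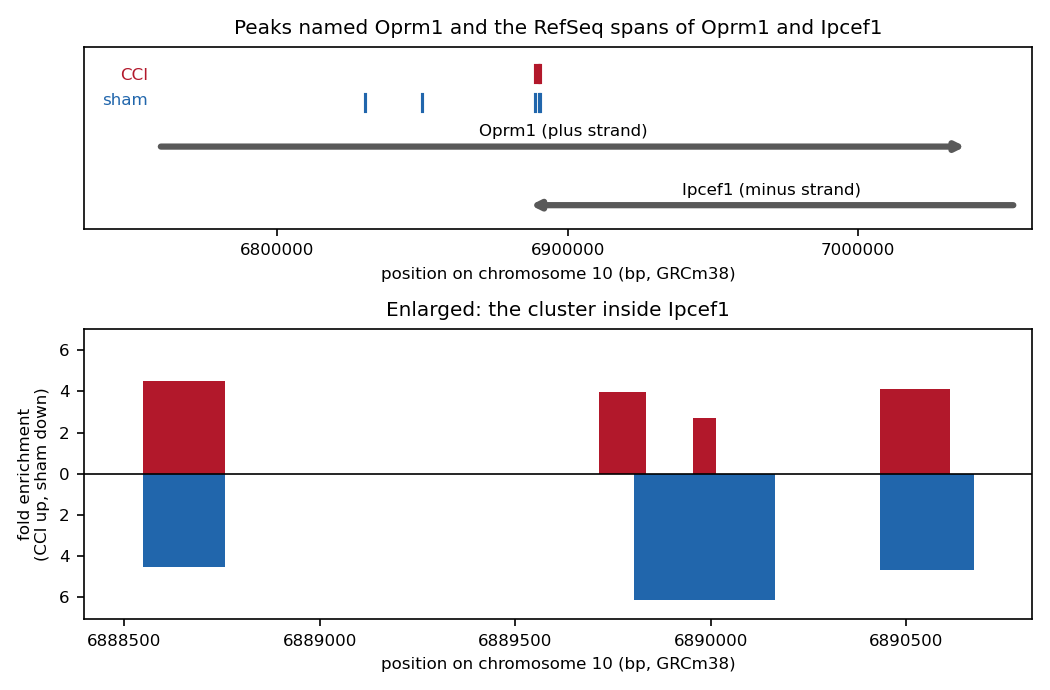
Upper panel, peaks named *Oprm1* in the CCI and sham lists (vertical marks) above arrows for the RefSeq spans and strands of *Oprm1* and *Ipcef1* on chromosome 10 (x axis, bp). Lower panel, fold enrichment of IP over input (y axis, CCI upward in red and sham downward in blue) in the cluster from 6888547 to 6890671, which lies at the 3′ end of *Ipcef1*, while the 2 upstream sham peaks lie outside *Ipcef1*.

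The 2 upstream sham peaks of *Oprm1* stood in the run of its own strand. Their log10 false discovery rates were -8.98 and -14.2. Among the 5810 sham peaks with no CCI partner of the same gene, they ranked within the top 10.3% and the top 4.30% by this rate. In the whole sham list they were within the top 63.5% and 53.9% by p-value, so they stood high among unpartnered peaks only. Of all peaks of the 9 genes, 1 of 20 in CCI and 5 of 21 in sham had no partner, while over the whole lists the shares were 13.2% (12.8 to 13.5%) in CCI and 16.9% (16.5 to 17.3%) in sham. The 5 unpartnered sham peaks belonged to *Oprm1* and *Penk*.

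*Penk* (ENSMUSG00000045573), the precursor of the enkephalins, had its main peak in the 3′-UTR on chromosome 4, from 4133769 to 4134333 in CCI and from 4133709 to 4134362 in sham. The fold enrichment was 7.55 in CCI and 8.18 in sham, a log2 ratio of -0.12. By p-value the peak was in the top 1.51% of the CCI list (log10 p -809) and the top 1.08% of the sham list (log10 p -1130). By fold enrichment it was only in the top 40.1% and 36.7%. This pattern was the reverse of that of *Oprk1*, and at the site with the lowest p-values of the 9 genes the CCI and sham fold enrichments were nearly equal.

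The other 3 *Penk* peaks were called in sham alone. One was a weak peak of 60 bp at the transcript end, from 4133531 to 4133590, with a fold enrichment of 1.92. Another lay in the 5′-UTR with 2.91, in blocks from 4138454 to 4138477 and from 4138635 to 4138819. The last had 3.66, in blocks from 4138618 to 4138710 and from 4187429 to 4187544, so that its far block began 48610 bp beyond the border of the *Penk* transcript.

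This last peak stood in the run of the plus strand, while *Penk* lies on the minus strand, and it shared 76 exonic bp with the 5′-UTR peak. Without it, the sham-only signal of *Penk* consists of 1 peak at each end of the transcript, each with a fold enrichment under 3 (1.92 and 2.91).

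*Pdyn* (ENSMUSG00000027400) encodes the precursor of the dynorphins, the ligands of the κ receptor. On chromosome 2 it had 2 pairs in its 3′-UTR, each with the same lower border in both lists. The peak nearer to the transcript end, from 129686744 to 129687130 in CCI and to 129687160 in sham, had a fold enrichment of 6.52 in CCI and 4.39 in sham (log2 ratio 0.57). The other, from 129687696 to 129688410 in CCI and to 129688439 in sham, had 12.4 in CCI and 18.1 in sham (log2 ratio -0.55). The dynorphin precursor thus showed opposite leanings of nearly equal size at neighbouring peaks, both short of 2-fold.

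*Pnoc* (ENSMUSG00000045731), the precursor of nociceptin, had a single pair, in the 5′-UTR on chromosome 14. The CCI peak ran over 61 bp from 65425262 to 65425322 with a fold enrichment of 9.38, and the sham peak over 151 bp from 65425232 to 65425382 with 25.6. The log2 ratio of -1.45 was the lowest among the 16 pairs and stood at the 3.17 percentile of all pairs. The CCI peak was close to the limit of calling, with a log10 false discovery rate of -1.71 where the highest value in the CCI list was -1.32. With a false discovery rate below 0.01 required, *Pnoc* had no CCI peak, and 7 of the 9 genes remained in that list. Nociceptin and its receptor thus carried signal at opposite ends of their transcripts, at the 5′ end in *Pnoc* and over the 3′-UTR in *Oprl1*.

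*Tacr1* (ENSMUSG00000030043) encodes the receptor of substance P. Its highest fold enrichment was above those of the other 7 genes with a peak in sham and, in CCI, above those of all of them but *Oprk1*. Its 3′-UTR on chromosome 6 held 3 pairs. The pair from 82557562 to 82558250 had identical borders in CCI, where its fold enrichment was 45.9, and in sham, where it was 17.1. Its log2 ratio of 1.42 was the highest of the 16 pairs, at the 95.8 percentile of all pairs.

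At the end of the transcript the order was turned around. The peak from 82558848 to 82560074 in CCI had a fold enrichment of 42.2, and its sham partner from 82558878 to 82560104 had 95.3, which placed it in the top 1.44% of the sham list. Both peaks spanned 1227 bp and shared 1197 bp, and their log2 ratio was -1.18, at the 5.11 percentile of all pairs. These 2 strong pairs of *Tacr1* had equal widths in CCI and sham, unlike the called pairs of *Oprk1*, *Oprl1*, *Oprm1* and *Pnoc*.

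Between them lay a weak pair, from 82558549 to 82558639 in CCI with 2.28 and from 82558369 to 82558668 in sham with 2.67 (log2 ratio -0.23). The log10 p was -52.3 in CCI and -66.0 in sham for the upstream strong pair, and -57.8 in CCI and -51.6 in sham for the pair at the end. The 2 strong peaks of the *Tacr1* 3′-UTR thus had similar fold enrichments in CCI and the higher one at the end in sham. The p-values ran the other way, since at each strong pair the group with the higher fold enrichment had the weaker p-value, as at *Oprk1*.

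The 5′-UTR of *Tacr1* had a further pair, from 82403074 to 82403223 in CCI with a fold enrichment of 2.99 and from 82403044 to 82403253 in sham with 5.74 (log2 ratio -0.94). Downstream of it, from 82403492 to 82403702, stood a CCI peak with 8.99 and no sham partner, the 1 unpartnered CCI peak among the 9 genes. It ranked within the top 16.9% of the unpartnered CCI peaks by false discovery rate, and within the top 67.7% of the whole CCI list by p-value. The 5′-UTR class of *Tacr1* thus had a single ratio, which was lower in CCI, and a CCI peak with no sham value to set beside it. These peaks were assigned to the transcript ENSMUST00000205041, which ends from 1662 to 2141 bp after them. The 3′-UTR peaks were assigned to another transcript, ENSMUST00000032122.

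The table of differential peaks held 4812 rows, and 1 of them belonged to these genes. It was the peak at the end of the *Tacr1* 3′-UTR, from 82558848 to 82560104, whose borders join those of the CCI and sham peaks. The other 8 genes had no row. Over the 13554 genes of the lists, 25.3% (24.6 to 26.1%) had a row, and of the 8 opioid and tachykinin genes in the lists 1 did, which was not above the general level.

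The nearest pattern among 93 genes of the related lists described next was sought for each gene at its strongest pair, by the distance between log2 fold enrichments over the CCI and sham lists. *Oprl1* lay nearest to *Gpr137* (distance 0.067), *Penk* to *Adcy8* (0.098) and *Pnoc* to *Arrb1* (0.099), which encodes an arrestin. The nearest gene to *Pdyn* was *Grk5* (0.15), to *Oprk1* *Gng2* (0.16), to *Oprd1* *Galr2* (0.17) and to *Oprm1*, at a pair of the cluster inside *Ipcef1*, *Rgs20* (0.28). That *Oprm1* pair had the highest sham value of the gene's pairs (6.13) but the lowest CCI value (2.72). It compares 61 bp in CCI with 359 bp in sham. *Tacr1* was the most isolated of the 8, with *Pld2* at a distance of 0.66, where the values were 57.3 in CCI and 134 in sham. These are likenesses of 2 values each and carry no error.

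Of 20 other neuropeptide precursors, 5 had a peak in CCI and 7 in sham, beside 49.9% and 51.5% of all protein-coding genes. All 3 opioid precursors had a peak in both lists, although *Pnoc* had none in CCI with a false discovery rate below 0.01. The difference between these lists of precursors was not tested. *Tac2*, the precursor of neurokinin B, had the highest log2 ratio of the list (1.16, with 11.2 in CCI and 5.02 in sham), followed by *Npy* (0.65, with 16.8 and 10.7). The lowest were *Sst* (-0.33, with 16.3 and 20.5) and *Grp* (0.028, with 15.6 and 15.3). *Tac1* was thus 1 of many neuropeptide precursors without a peak, 13 of the 20 in that list having none in either group, among them *Calca* and *Gal*, which were named here after their values were seen.

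Of 37 other neuropeptide receptors, 23 had a peak in CCI and 27 in sham. Their 37 pairs had a median log2 ratio of 0.33, with 9 called higher and 0 lower in CCI. The most peaks were found in *Sstr3*, with 6 in each list. *Adcyap1r1*, with 5 in CCI and 4 in sham, followed in a tie over both lists with another gene, and was first by alphabet. *Adcyap1r1* also had the highest log2 ratio (1.79, with 14.9 in CCI and 4.30 in sham), before *Crhr1* (1.58, with 8.72 and 2.92), and the lowest were *Ntsr2* (-0.83, with 24.3 and 43.3) and *Vipr2* (-0.48, with 3.78 and 5.28). The 4 opioid receptors, with 8 pairs, had a median of -0.018, and the 4 pairs of *Tacr1* had a median of -0.58. With only the pairs in the run of the gene's strand, which leaves out the 3 *Oprm1* pairs, the 5 opioid receptor pairs had a median of 0.46, while those of the other receptors (0.33) and of *Tacr1* were unchanged. The place of the opioid receptors below or above the other receptors thus depended on the *Oprm1* cluster.

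Genes of peptide processing and breakdown, which cut the precursors and degrade the peptides, had a peak in 11 of 16 in CCI and 13 in sham. Their 21 pairs had a median log2 ratio of 0.058, with 4 called higher and 1 lower in CCI. *Pcsk1n*, an inhibitor of prohormone convertase, had the highest ratio (3.04, with 514 in CCI and 62.6 in sham), before *Thop1* (1.62). *Ece1* (-1.16) and *Mme* (-0.53), which encodes neprilysin, an enzyme that degrades enkephalins, were lowest. The most peaks were those of *Ece2*, with 4 in CCI and 5 in sham. *Ace*, with 3 in each, followed in a tie over both lists with other genes, and was first by alphabet. With only the peaks in the run of the gene's strand, *Ece2* had 2 in each list, fewer than *Ace*, and the median log2 ratio of the list was 0.15 over 19 pairs.

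Among 31 genes of Gi/o signalling, through which opioid receptors act, 27 had a peak in CCI and 26 in sham. Their 71 pairs had a median log2 ratio of 0.11, with 4 called higher and 5 lower in CCI. *Gnao1*, the α subunit of Go, had the most peaks, 12 in CCI and 13 in sham, followed by *Adcy1* with 8 and 7. *Rgs17* (1.35) and *Rgs4* (1.26) were highest and *Rgs9* (-2.28, with 2.69 in CCI and 13.1 in sham) and *Gnaz* (-1.82) lowest, so regulators of G protein signalling stood at both ends.

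Of 19 genes of receptor phosphorylation, arrestin and trafficking, 18 had a peak in CCI and 18 in sham, and 17 had one in both. Their 43 pairs had 2 called higher and 4 lower in CCI. *Gprasp1*, with 9 peaks in CCI and 8 in sham, had the most, followed by *Arrb1* and *Opcml*, each with 6 in each list. *Grk4* (2.05) and *Opcml* (0.78) had the highest log2 ratios, and *Arrb1* (-1.43) and *Pld2* (-1.23) the lowest. Of 14 genes of Gq signalling, through which the substance P receptor acts, 13 had a peak in each list, and their 40 pairs had 2 called higher and 2 lower. *Gnaq*, with 8 peaks in CCI and 7 in sham, and *Plcb4*, with 6 and 5, had the most. *Plcb1* (0.69) was among the highest log2 ratios, and *Rgs2* (-1.42) and *Plcb3* (-1.33) were lowest. Downstream of both kinds of receptor most genes thus had a peak, beside 49.9% of all protein-coding genes in CCI and 51.5% in sham. The difference from that share was not tested. The calls in these lists are to be read beside the 8.63% called higher and 7.23% called lower over all pairs.

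Markers of the cells of the spinal cord were looked up in the same lists. A peak does not measure expression, so these counts do not give the cell content of the tissue. Of 48 markers, 37 had a peak in CCI and 41 in sham, beside 49.9% and 51.5% of all protein-coding genes. All 5 markers of neurons, of inhibitory dorsal horn neurons, of oligodendrocytes and of microglia had a peak in each list, as did 3 of 4 in CCI and 4 of 4 in sham for excitatory dorsal horn neurons, 4 of 5 for astrocytes and for motor neurons and 6 of 7 for position along the cord. The markers of sensory neurons of the dorsal root ganglion differed between the lists, with 0 of 7 in CCI and 3 of 7 in sham.

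These were *Scn10a* with 2 sham peaks (fold enrichment 8.13 and 2.79), *Scn11a* with 1 (9.68) and *Mrgprd* with 1 (19.8), while *Trpv1*, *Avil* and *P2rx3* had none in either list. *Prrxl1*, listed with the excitatory dorsal horn markers, also had sham peaks only, 3 with fold enrichments from 1.89 to 3.06. Their log10 false discovery rates of -1.93, -1.97 and -2.43, and that of the weaker *Scn10a* peak (-1.75), were close to the highest value in the sham list, -1.33. Those of the stronger *Scn10a* peak (-5.04), of *Scn11a* (-4.82) and of *Mrgprd* (-3.91) were further from it. The 2 upstream *Oprm1* peaks, likewise found in sham alone, belong to a gene that sensory neurons also express. The part of such RNA in any difference between the lists was not tested. A peak called in sham alone gives neither an amount of RNA nor a number of cells, and in whole tissue these cannot be told apart.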

How the data were processed

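MeRIP-seq tables from 1 CCI and 1 sham IP library, each with 1 input library, were analysed. The submitters' processing notes name fastp, HISAT2, HOMER and ChIPseeker and the build GRCm38, whereas the methods of the study name Cutadapt, bowtie, MACS2 and ChIPseeker, and the columns resemble exomePeak output. The authors computed the deposited fold enrichment, a ratio of the IP to the input signal. The deposited p-values and false discovery rates, on a log10 scale, were read as a score, since some are minus infinity. The differential table also holds the authors' log2 fold change, p-value and false discovery rate of CCI against sham, which were not used. Only the presence, position and annotation of its rows were used.

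Peaks were assigned by the deposited gene name, compared by exonic blocks (at least 1 bp) and paired as mutual best partners by shared bases. A pair was called at an absolute log2 ratio of at least 1. Shares carry exact Clopper-Pearson 95% intervals, which cover counting error only. RefSeq (GRCm38.p6) supplied gene spans and matched all 9 symbols. The text names all 9 genes and, from each related list, the 2 genes with most peaks over both lists (ties in alphabetical order) and the 2 highest and 2 lowest log2 ratios at the strongest pair. Single items that fall under these lists are not reported here. For likeness, it names the gene at the smallest Euclidean distance. The genes and lists were chosen with earlier results of these data known. Peak sequences were not analysed here. Pairing was run on simulated peaks of equal width in both lists, each overlapping only its true partner. Split peaks, unequal widths and peaks of several blocks were not simulated. Alternatives covered the false discovery rate, fold enrichment, overlap, gene assignment, centring, ranks, fold and unit of counting. The software was matplotlib 3.10.9, scipy 1.17.1, pandas 2.3.3 and numpy 2.4.6 under Python 3.11.15.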

Additional observations from a re-analysis of the deposited data

How the results depend on the processing

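No paired analysis was possible because CCI and sham were represented by 1 IP library each, with nothing to pair across replicates. Of 31 counts under alternatives, 27 stayed within 1.5 times the value given and 4 moved further. With an overlap of 50% of both peaks, 10 of the 20 CCI peaks and 10 of the 21 sham peaks of these genes had a partner, against 19 and 16 with 1 bp. Under the same overlap, 1 pair in place of 3 was called lower in CCI and 2 in place of 3 higher, since *Pnoc*, the middle *Oprm1* pair and the last *Oprl1* pair no longer counted as pairs. With an absolute log2 ratio of at least 0.5, 6 pairs were called lower and 4 higher. The median log2 ratio of the pairs was -0.33 with the strongest peak of each gene in each list, in place of -0.15, and from -0.17 to -0.056 under the other alternatives. Of 50 log2 ratios of single pairs, 37 stayed within 0.1 and 13 moved further, 11 of them on the ranks, which are on another scale, and no called pair changed sign. Counting only peaks in the run of their gene's strand was chosen after seeing the data, and it left 16 CCI and 17 sham peaks and 3 pairs called higher and 2 lower. With unknown depth and 1 library per group, the error of a fold enrichment and of each ratio is unknown.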
